A study of Mus musculus with 69 samples.

Results

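The genes described here are 10 acid-base genes of kidney intercalated cells, picked by symbol from the deposited tables. All 10 symbols were found in every table, among 55487 genes listed at 24 h and 53700 at 72 h. They are Slc4a1 for type A cells, Slc26a4 and Slc4a9 for type B cells, and Foxi1, Atp6v1b1, Atp6v1g3, Atp6v0d2, Atp6v0a4, Rhcg and Rhbg, which were taken as shared by intercalated cells. RNA-seq had been done on hand-dissected tubules of wild-type male C57BL/6 mice, aged 7 weeks when they were assigned to surgery. They were operated on either to excise a kidney (unilateral nephrectomy, UNx) or as sham controls, and the labels give 24 h or 72 h for each group. The segments were the cortical collecting duct (CCD), where intercalated cells lie among principal cells, and the S1 segment of proximal tubule (PT-S1). CCD at 24 h had 8 libraries from 4 sham animals and 7 from 3 UNx animals, and CCD at 72 h had 7 from 4 sham animals and 6 from 4 UNx animals. PT-S1 at 24 h had 8 libraries from 3 sham animals and 9 from 4 UNx animals, and PT-S1 at 72 h had 12 from 5 animals in each group. A CCD library pools cells of several types, so fewer intercalated cells and less RNA per cell cannot be told apart.

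Intercalated cells move acid and base across the collecting duct. Type A cells secrete protons into the urine through a vacuolar H+-ATPase (V-ATPase) and return bicarbonate to the blood through the Cl-/HCO3- exchanger AE1, encoded by Slc4a1. Type B cells secrete bicarbonate and take up chloride through pendrin, encoded by Slc26a4, and carry the basolateral anion exchanger AE4, encoded by Slc4a9. The forkhead factor Foxi1 is needed for these cells to form and is known to drive several of the V-ATPase and exchanger genes, while Rhcg and Rhbg carry ammonia.

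The unit throughout is TPM, the reads of a gene per length, scaled to the same total in every library, so levels can be compared between genes while the sequencing depth is unknown. In sham CCD at 24 h the 10 genes together took up 0.838% ± 0.049 of all TPM (SD, n = 4 animals), and in sham CCD at 72 h 0.883% ± 0.142 (n = 4). UNx animals were at 0.866% ± 0.067 (n = 3) and 0.894% ± 0.057 (n = 4). In PT-S1 the share was between 0.0044% and 0.0074% in the group means. The labelled segments carried their markers: Aqp2, the water channel of principal cells, was between 9362 and 54564 TPM in every CCD library and at most 2.01 TPM in PT-S1, whereas Slc34a1, the phosphate carrier of proximal tubule, was at least 1272 TPM in every PT-S1 library and at most 89.7 TPM in CCD. Other markers were less exclusive. Aqp3 and Fxyd4, also read as principal cell markers, reached 141 and 143.9 TPM in PT-S1 libraries, against at least 2018 and 3387 TPM in CCD. Umod, a marker of thick ascending limb, reached 5965 TPM in a sham CCD library at 24 h. Of the 69 libraries, 5 had a median correlation with the other libraries of their table below 0.92, and the changes of those of the 10 genes that were tested in their tables are also given without them. They were 1 sham CCD library at 72 h, 2 sham PT-S1 libraries at 24 h and 2 UNx PT-S1 libraries at 72 h.

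The order of the levels in sham CCD at 24 h was led by Rhcg, the apical ammonia channel, at 2705 ± 257 TPM (mean ± SD, n = 4 animals). Slc26a4 (1138 ± 127) and Slc4a9 (985 ± 110) came next, then Rhbg (789 ± 120), Atp6v1b1 (760 ± 203), Foxi1 (537 ± 73), Atp6v0d2 (520 ± 31), Atp6v1g3 (519 ± 28), Slc4a1 (272 ± 100) and Atp6v0a4 (154 ± 40). Neighbours in this order had overlapping animals except at the step from Rhcg to Slc26a4 and that from Atp6v1g3 to Slc4a1. In sham CCD at 72 h Rhcg was again highest, at 2719 ± 238 TPM (n = 4), and Atp6v1b1 stood second at 1210 ± 483, but its animals overlapped those of Slc26a4 (1147 ± 504). Slc4a1 (260 ± 80) and Atp6v0a4 (173 ± 68) were lowest there too. The type B exchangers were thus above the type A exchanger in transcript level in every sham animal of both tables.

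**Figure D1:**
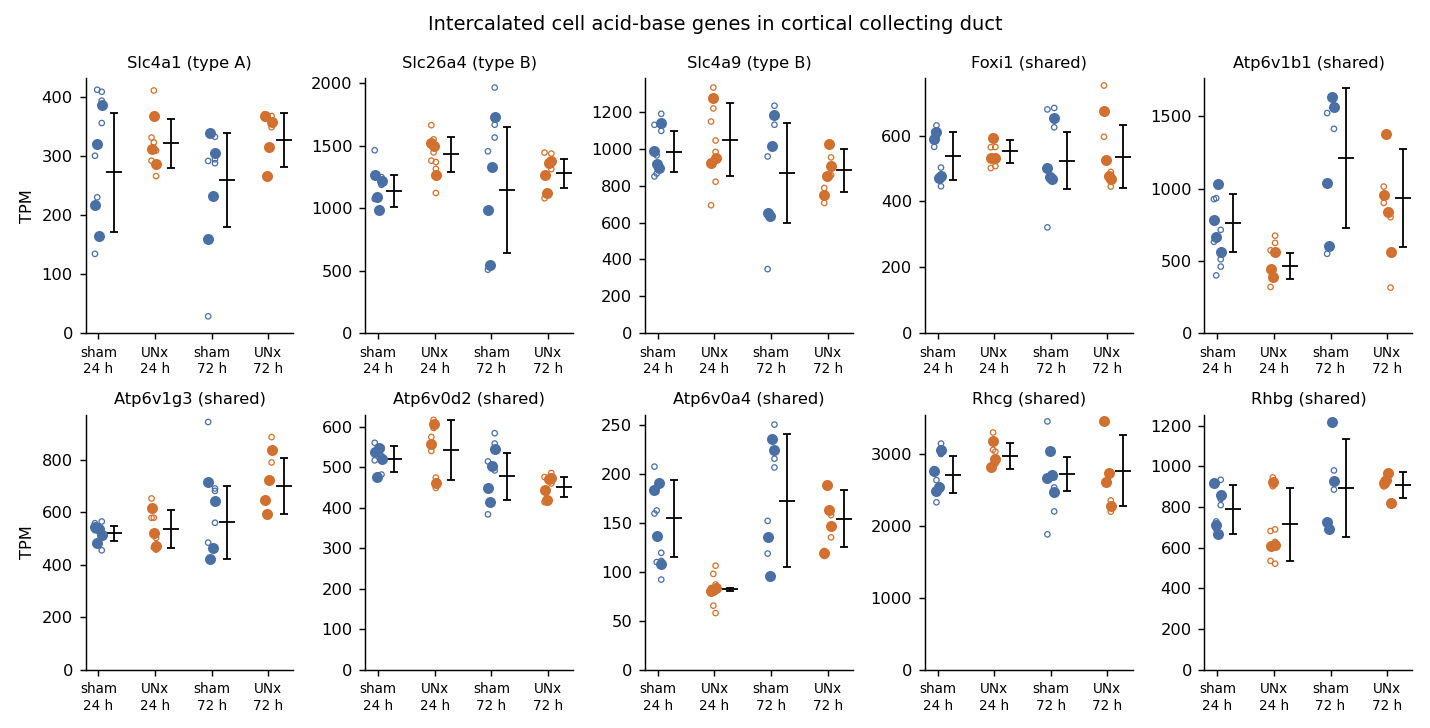
TPM (linear axis) of the 10 genes in CCD. Small open circles are libraries, filled circles are animals (mean of their libraries), and the bar beside each group is the mean ± SD over animals. At 24 h the 3 UNx animals of Atp6v0a4 sit between 80.8 and 83.7 TPM, below all 4 sham animals (107 to 191), while Rhcg, Foxi1 and Atp6v0d2 overlap between groups.

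At 24 h after surgery none of the 10 genes passed the test in CCD. The test was limma on log2(TPM + 1) of animal means, with p-values adjusted by Benjamini-Hochberg over all 13775 genes tested and a threshold of 0.05, which called 0.987% of the genes. On this log2 scale, animals of both groups did not overlap for 3 of the 10 genes, Atp6v0a4, Atp6v1b1 and Slc26a4, against 15.1% of all genes tested. The same 3 genes had an unadjusted limma p under 0.05, as did 2138 of the 13775 genes tested. The median change (UNx minus sham, log2) over the 10 genes was 0.05, beside -0.04 over all genes tested, and 7 of the 10 were above 0.

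The largest changes at 24 h were those of 2 V-ATPase subunits, both lower in UNx, while the 2 other subunits of the group had changes near 0. Atp6v0a4 encodes the a4 subunit of the membrane sector, found in few cell types, and Atp6v1b1 the B1 subunit of the catalytic sector. Mutations of either gene cause distal renal tubular acidosis in people. The 250 bases before the transcription start of these 2 genes are shown because they had the largest differences at 24 h and followed each other over the CCD libraries (below). The sequences are RefSeq's, build GRCm38.p6, 5′ to 3′, from chr6:83742767-83743016 on the plus strand for Atp6v1b1 and chr6:38124587-38124836 on the minus strand for Atp6v0a4. Capitals mark the forkhead core motif TGTTTAC, searched on both strands.
Atp6v1b1: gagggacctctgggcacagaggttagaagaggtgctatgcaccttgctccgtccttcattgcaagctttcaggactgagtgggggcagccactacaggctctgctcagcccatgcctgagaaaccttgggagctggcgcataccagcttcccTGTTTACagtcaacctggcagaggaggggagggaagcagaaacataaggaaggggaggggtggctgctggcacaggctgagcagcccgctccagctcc
Atp6v0a4: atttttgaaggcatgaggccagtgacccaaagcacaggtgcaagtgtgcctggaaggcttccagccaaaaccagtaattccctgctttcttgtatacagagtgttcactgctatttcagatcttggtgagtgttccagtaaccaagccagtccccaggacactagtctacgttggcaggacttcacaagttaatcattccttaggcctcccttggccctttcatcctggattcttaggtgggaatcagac
The Atp6v1b1 window holds 1 match, which begins 98 bases before the start, and the Atp6v0a4 window holds none. Of the 6 genes of the group with an entry (Atp6v1b1, Atp6v0a4, Atp6v1g3, Rhcg, Foxi1 and Slc26a4), Atp6v1b1 alone has a match in this window, and 3.17% of the 32851 promoters in the table have one. Slc4a1, Slc4a9, Atp6v0d2 and Rhbg were not searched.

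Atp6v0a4 was at 183, 136, 191 and 107 TPM in the sham CCD animals at 24 h and at 80.8, 81.6 and 83.7 TPM in the UNx animals. Every UNx animal was below every sham animal, and the UNx animals lay within 3 TPM of each other although their single libraries ranged from 57.9 to 106 TPM. The change was -0.88 on the log2 scale (SE 0.18, limma adjusted p = 0.0668). It did not pass the threshold. Without sham animal 4 it was -1.04 with a limma adjusted p of 0.0430. It also passed with every library taken as a replicate (limma adjusted p = 0.0126) and in a model with a random animal effect (0.0314). Libraries of an animal are not independent, so taking every library as a replicate overstates the number of replicates. Both settings also called more of all genes tested than the main fit. Over all 15 alternatives the adjusted p ranged from 0.0126 to 0.1995 and the change stayed negative.

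Atp6v1b1 was at 779, 666, 1033 and 562 TPM in sham and at 446, 385 and 561 TPM in UNx. The groups did not overlap, but the lowest sham animal (561.51 TPM) and the highest UNx animal (561.417 TPM) were almost equal. The change was -0.68 (SE 0.21, limma adjusted p = 0.163). Libraries of an animal differed widely, with 933 and 399 TPM in the libraries of sham animal 2. The library at 933 TPM also had the highest sum of 3 thick ascending limb markers (Umod, Slc12a1 and Cldn16), 6814 TPM, against 81.1 to 1396 TPM in the other sham libraries and 57.0 to 208 TPM in UNx libraries. Without that library the change was -0.53 for Atp6v1b1 (adjusted p = 0.441) and -0.81 for Atp6v0a4 (0.121).

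Atp6v1g3, the kidney form of the G subunit, was at 519 ± 28 TPM in sham (n = 4) and 537 ± 72 in UNx (n = 3), a change of 0.04 (SE 0.10). Atp6v0d2, the d2 subunit of the membrane sector, was at 520 ± 31 and 542 ± 74 TPM, a change of 0.05 (SE 0.10). The limma adjusted p was 0.893 and 0.858, and the animals overlapped for both. The remaining 18 V-ATPase subunits and accessory proteins, most of them used by all cells, were all tested. None passed, their median change was -0.0062, and 2 of 18 had groups that did not overlap, against the 15.1% of all genes tested. The largest of these was Atp6v0a2, another a subunit, at 0.32 (SE 0.08, adjusted p = 0.118), singled out after its values were seen.

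The type B gene Slc26a4 was at 1268, 1087, 985 and 1214 TPM in the sham CCD animals at 24 h and at 1521, 1497 and 1267 TPM in UNx. On the log2 scale of the test the animals did not overlap. In TPM they did, since the highest sham animal (1267.82) was just above the lowest UNx animal (1267.1). The change was 0.33 (SE 0.11, limma adjusted p = 0.189), and it lay between 0.26 and 0.41 in all 15 alternatives. Slc4a9 was at 990.5, 916, 896 and 1139 TPM in sham and at 921, 1276 and 950 TPM in UNx. Its animals overlapped and its change was 0.07 (SE 0.14, adjusted p = 0.861), with the sign turning to -0.09 without UNx animal 2.

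The type A gene Slc4a1 varied more among sham animals than between groups. It was at 218, 321, 164 and 387 TPM in sham and at 312, 367 and 287 TPM in UNx, so that the UNx animals fell inside the sham range. The change was 0.35 (SE 0.26, limma adjusted p = 0.570). AE1 is also the band 3 protein of red blood cells, so erythrocyte markers were read beside it. Epb42, a membrane protein of red cells, was at most 0.3 TPM in every CCD library. The sum of 8 erythrocyte genes was highest in the libraries of sham animal 1, at 77.9 and 211 TPM, whose Slc4a1 levels were 301 and 134 TPM.

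Foxi1, the transcription factor of the lineage, was at 537 ± 73 TPM in sham and 552 ± 35 in UNx at 24 h. Its change of 0.05 (SE 0.11, limma adjusted p = 0.884) turned to -0.01 without sham animal 3. The ammonia carriers gave 0.14 (SE 0.10, adjusted p = 0.542) for Rhcg, with 2705 ± 257 against 2970 ± 184 TPM, and -0.16 (SE 0.17, adjusted p = 0.694) for Rhbg, with 789 ± 120 against 716 ± 181 TPM. All 3 genes overlapped between groups. The summed level of 7 principal cell markers was 24909 to 51824 TPM in sham libraries and 47194 to 73787 TPM in UNx libraries. Aqp2, the highest of the 7 in level, had a log2 difference of 1.06 (SE 0.44, limma adjusted p = 0.297). The median change of the 7 markers was 0.01, with 4 above 0 and 3 below 0, and none passed. The part of the principal cell values in the results on the 10 genes was not tested.

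**Figure D2:**
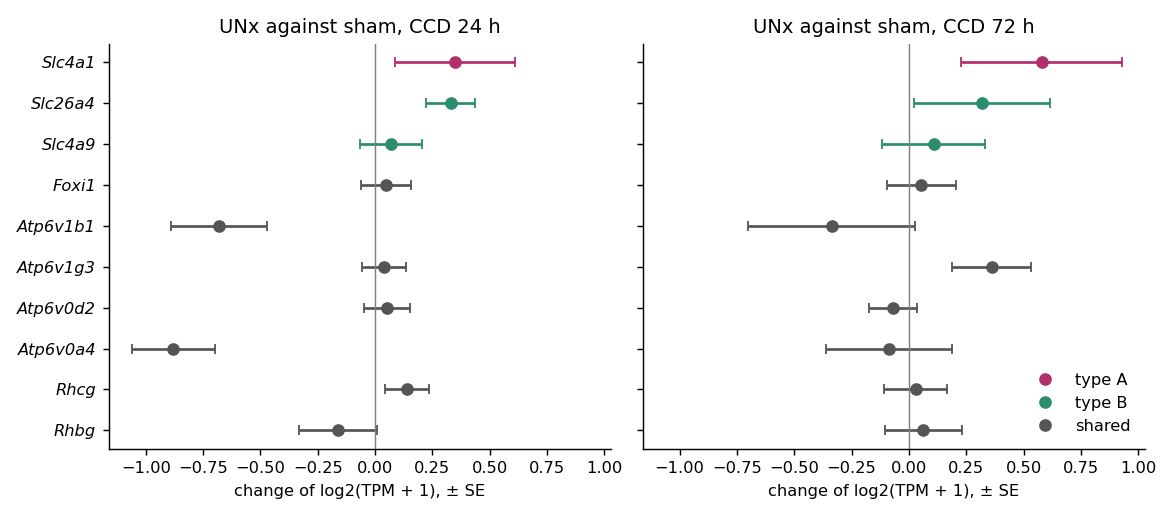
Change of each gene in CCD (UNx minus sham, log2(TPM + 1), horizontal axis) with its standard error, at 24 h (left) and 72 h (right). At 24 h Atp6v0a4 (-0.88) and Atp6v1b1 (-0.68) lie farthest from 0, and at 72 h the standard errors are wider and Slc4a1 (0.58) lies farthest.

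At 72 h the 10 genes gave no difference between UNx and sham CCD that passed the test. Across 13770 genes the test called 0.595%, and groups of 4 against 4 animals did not overlap for 4.77% of them and for none of the 10. None of the 10 had an unadjusted limma p under 0.05, against 1031 of the 13770 genes tested. The median change was 0.06 beside 0.01 over all genes tested, with 7 of the 10 above 0.

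Slc4a1 had the largest change at 72 h. It was at 160, 340, 233 and 305 TPM in sham and at 368, 267, 316 and 359 TPM in UNx, overlapping groups with a change of 0.58 (SE 0.35, limma adjusted p = 0.825). The lowest sham value came from the library of low correlation, which held 28.4 TPM, while the other library of that animal held 292 TPM. Without it the change was 0.16.

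The type B genes overlapped as well. Slc26a4 was at 980, 548, 1327 and 1731 TPM in sham and at 1261, 1123, 1358 and 1374 TPM in UNx, with the lowest and the highest of all 8 animals in the sham group. Its change of 0.32 (SE 0.30, limma adjusted p = 0.900) was 0.02 without sham animal 2 and 0.13 without the library of low correlation. Slc4a9 was between 633 and 1183 TPM in sham and between 747 and 1026 TPM in UNx, a change of 0.11 (SE 0.22), and -0.08 without the library of low correlation.

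Atp6v1b1 spanned 606 to 1635 TPM in the sham animals and 558 to 1376 TPM in the UNx animals at 72 h, a change of -0.34 (SE 0.36, limma adjusted p = 0.918). It was -0.52 (adjusted p = 0.555) without the library of low correlation and ran from -0.62 to -0.08 with an animal left out. Atp6v0a4 was at 135, 96.1, 235 and 224 TPM in sham and at 119, 188, 163 and 147 TPM in UNx. Its groups overlapped fully and its change was -0.09 (SE 0.27, adjusted p = 0.978). Atp6v1g3 was at 561 ± 140 TPM in sham and 700 ± 106 in UNx (n = 4 each), the smallest unadjusted p of the 10 at 0.0616 (limma, change 0.36, SE 0.17, adjusted p = 0.700). Atp6v0d2 (-0.07), Foxi1 (0.05), Rhcg (0.03) and Rhbg (0.06) had changes within 0.1 of 0, with standard errors of 0.10 to 0.17. Without the library of low correlation the change was 0.48 for Atp6v1g3 (limma adjusted p = 0.190), -0.13 for Atp6v0a4, -0.12 for Atp6v0d2, -0.08 for Foxi1 and for Rhcg, and 0.07 for Rhbg.

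Whether the effect of UNx in CCD differed between 72 h and 24 h was tested as the difference of both effects, over 13253 genes with a mean of at least 1 TPM in both tables. The test called 0% of the genes and none of the 10. At an unadjusted limma p under 0.05 there were 658 genes, of which Atp6v0a4 was the only one of the 10. The largest difference was that of Atp6v0a4, 0.79 (SE 0.37), with an unadjusted limma p of 0.0486 and an adjusted p of 0.968. It came from -0.88 at 24 h and -0.09 at 72 h. For Slc26a4 both effects were nearly equal, with a difference of -0.01 (SE 0.36), and for Slc4a1 it was 0.23 (SE 0.49).

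The balance of type B over type A transcripts was read as the log2 ratio of Slc26a4, or of Slc4a9, to Slc4a1 in each animal. For Slc26a4 over Slc4a1 at 24 h the sham animals gave 2.63, 1.81, 2.58 and 1.65, and the UNx animals gave 2.28, 2.03 and 2.14. The UNx animals lay inside the sham range, with a difference of the means of -0.02 (two-sided exact permutation p = 0.943). At 72 h the sham animals gave 3.21, 0.69, 2.50 and 2.50 and the UNx animals 1.76, 2.07, 2.10 and 1.93, a difference of -0.26 (exact permutation p = 0.686). The UNx animals again lay inside the sham range, between sham animal 2 and the other 3 sham animals. For Slc4a9 over Slc4a1 the difference was -0.28 at 24 h (exact permutation p = 0.371) and -0.47 at 72 h (p = 0.286, exact permutation). Adjusted over the 4 comparisons the p-values were 0.743 to 0.943, and the smallest p either design could give was 0.0286. Without sham animal 2, every remaining sham animal at 72 h was above every UNx animal in both ratios: the differences were then -0.77 and -0.81, each with an unadjusted exact permutation p of 0.0286, the smallest that 3 against 4 animals can give. Without the library of low correlation, from sham animal 1, they were -0.03 and -0.24.

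**Figure D3:**
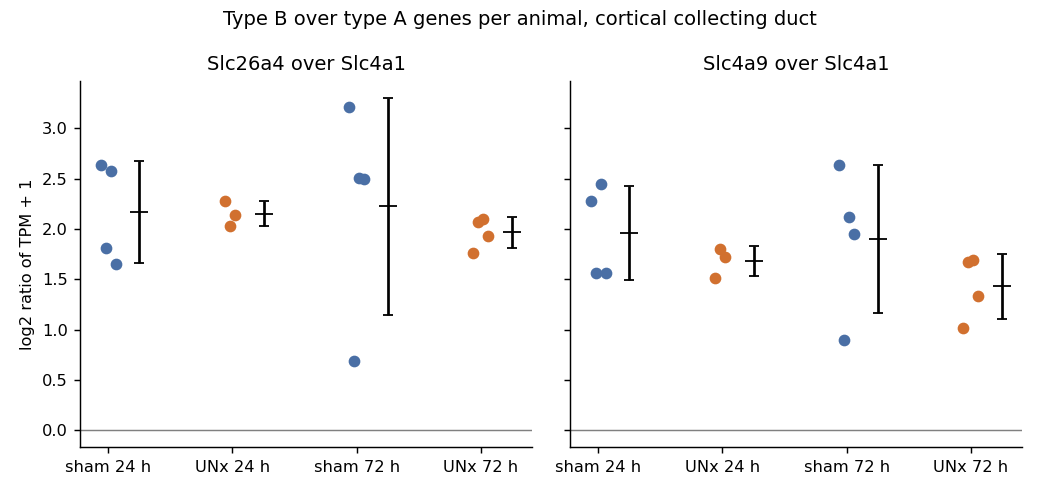
Log2 ratio of type B to type A transcripts per CCD animal (points), with the mean ± SD over animals beside each group. In sham CCD at 72 h the Slc26a4 over Slc4a1 ratio runs from 0.69 to 3.21, a wider spread than the 1.76 to 2.10 of the UNx animals. The value of 3.21 is that of sham animal 1, which includes the library of low correlation with Slc4a1 at 28.4 TPM.

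The genes also differed in how much they varied among CCD libraries of the same group. At 24 h the SD of log2(TPM + 1) over libraries, with group means removed, was 0.48 for Slc4a1, 0.47 for Atp6v1b1 and 0.37 for Atp6v0a4, above that of 96.8%, 96.7% and 94.7% of the 1893 genes with a mean of at least 100 TPM. It was 0.12 for Rhcg and 0.15 for Atp6v0d2, close to the median of 0.13 for those genes. At 72 h the SD was 0.95 for Slc4a1, 0.71 for Atp6v1b1 and 0.18 for Atp6v0d2. The value for Slc4a1 rested on the library of low correlation: without it the SD was 0.19 for Slc4a1, 0.65 for Atp6v1b1, now the widest of the 10, and 0.14 for Atp6v0d2, the narrowest, beside a median of 0.14 for genes with a mean of at least 100 TPM. For Atp6v1b1 the libraries ran from 314 to 1638 TPM at 72 h, a ratio of 5.22, while those of Atp6v0d2 ran from 383 to 584 TPM.

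Pairs of these genes were compared over the 28 CCD libraries, with the mean of each table and group removed. Libraries of the same animal are not independent, so Pearson's r is a description and has no p here. The highest r was that of the type B pair Slc26a4 and Slc4a9, 0.85, followed by Slc26a4 with Atp6v0d2 at 0.76 and Slc4a1 with Slc4a9 at 0.74. Atp6v1b1 and Atp6v0a4, whose promoters are shown above, had r = 0.68. The lowest was that of Rhcg and Atp6v1g3, -0.66. Of the 45 pairs 37 were above 0, with a median of 0.29. Without the library of low correlation, Slc26a4 with Slc4a9 was at 0.77 and Atp6v1b1 with Atp6v0a4 at 0.64, while Slc4a1 with Slc4a9 was at 0.44 and Slc4a1 with Atp6v0a4 went from -0.07 to -0.52.

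**Figure D4:**
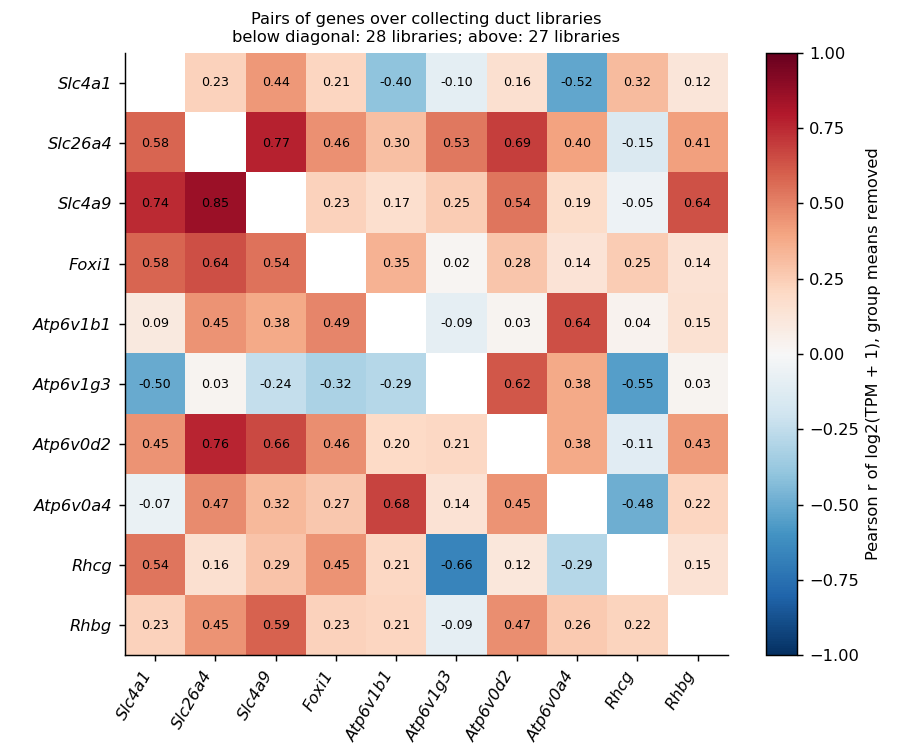
Pearson's r of log2(TPM + 1) for each pair of genes over CCD libraries, with group means removed, from -1 (blue) to 1 (red). Below the diagonal are all 28 libraries, and above it the 27 without the library of low correlation. The type B pair is the reddest cell below the diagonal (0.85), and Atp6v1g3 with Rhcg the bluest (-0.66).

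Over animals, 4 pairs were correlated in each CCD table, with exact permutation p-values adjusted over the 8 values. At 24 h Atp6v1b1 was inversely related to Slc4a1 (Pearson's r = -0.87, n = 7 animals, exact permutation p = 0.0111, adjusted 0.0452) and to Slc26a4 (r = -0.87, exact permutation p = 0.0113, adjusted 0.0452). Spearman's rho was -0.71 and -0.86, with adjusted exact permutation p-values of 0.235 and 0.112, so that the rank correlations did not pass. Without the 2 animals farthest from the median of Atp6v1b1, r was -0.67 and -0.63 over 5 animals. Of the deviations from the group means, which leave out the difference between sham and UNx, r was -0.94 for Slc4a1 and -0.69 for Slc26a4. At 72 h, over 8 animals, the same pairs gave r = -0.21 (exact permutation p = 0.662) and 0.45 (exact permutation p = 0.268). Their rho was -0.52 and 0.17, and r without the 2 farthest animals was -0.01 and 0.77. Without the library of low correlation the first was -0.76 (exact permutation p = 0.0285, unadjusted).

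The 2 other pairs did not pass at 24 h. Slc4a1 with Slc26a4 had r = 0.58 (rho 0.43, exact permutation p = 0.162 for r) and 0.15 without the 2 farthest animals, and Atp6v1b1 with the principal cell gene Aqp2 had r = -0.28 (rho -0.36, exact permutation p = 0.563). For the pair with Aqp2, r was -0.69 without the 2 farthest animals and 0.39 for the deviations from the group means, so that its sign depended on how the 7 animals were read. At 72 h Slc4a1 with Slc26a4 had r = 0.24 (rho 0.19, exact permutation p = 0.490), and Atp6v1b1 with Aqp2 had r = -0.73 (rho -0.79, exact permutation p = 0.0368, adjusted 0.0981), and -0.69 without the 2 farthest animals. The relation to Aqp2 did not pass after adjustment.

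The genes most alike to 3 of the group were sought over the same 28 libraries among 8208 genes with a mean of at least 10 TPM in both CCD tables. For Slc26a4 they included Tmem117 (r = 0.93), Hsd17b4 (0.93), a peroxisomal enzyme, Syn2 (0.92) and Insrr (0.91), an alkali-sensing receptor, where the median gene had r = 0.33, and 0.12 without the library of low correlation. For Slc4a1 they were Trak1 (0.96), Irf2bp1 (0.96), Pxn (0.96), Mta2 (0.96) and Edc4 (0.95), with a median gene at 0.45. That high median rested on the library of low correlation: without it the median gene was at 0.17, and the 5 genes were at 0.87 to 0.92. For Atp6v1b1 they included Alcam (0.89), Cd151 (0.88), Mageh1 (0.85) and Spr (0.84), with a median gene at 0.23, and 0.079 without that library. Without it Insrr (0.87) was no longer among the 5 genes most alike to Slc26a4. The same held for Spr (0.82) and Atp6v1b1, while the other genes named here stayed in their lists. No gene was in more than 1 of the 3 lists.

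The wider acid-base pathway was read from 3 further lists in CCD. Of 5 carbonic anhydrases, which supply protons and bicarbonate, none passed at 24 h (median change 0.12, 2 of 5 not overlapping, against 15.1% of all genes tested) or, for the 4 tested, at 72 h (0.26). Of 10 chloride and anion transporters, none passed at 24 h (median -0.04, 2 of 10 not overlapping, against the same 15.1%) or 72 h (0.18). Of 10 tested regulators and sensors of intercalated cells, none passed at 24 h (median 0.01, 3 of 10 not overlapping, against 15.1%) or 72 h (0.17). Among them the largest difference at 24 h, singled out after the values were seen, was that of Tfcp2l1, a transcription factor of intercalated and principal cells: -0.82 (SE 0.18, limma adjusted p = 0.0727), with no overlap between the animals. The 18 further V-ATPase subunits gave a median of 0.08 at 72 h, and none passed.

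In PT-S1 most of the 10 genes were near 0. Slc4a1 was listed at 0 in 16 of the 17 libraries at 24 h. Only Slc26a4 and Atp6v0a4 reached a mean of 1 TPM over the animals at 24 h, and these and Atp6v1g3 at 72 h, so that 2 and 3 of the 10 genes were tested. The other genes have no test there.

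Atp6v0a4 stood apart from the other genes of the group in PT-S1. It was at 70.0 ± 17.4 TPM in sham animals at 24 h (n = 3), where Slc26a4 was at 2.56 ± 0.81 and each of the other 8 was below 0.5 TPM. Its lowest PT-S1 library at 24 h held 39.2 TPM. For comparison, sham CCD at 24 h held 154 ± 40 TPM of Atp6v0a4 and 1138 ± 127 TPM of Slc26a4, in a table normalized separately. The a4 subunit is known to be present in proximal tubule as well as in intercalated cells.

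None of these genes passed the test of UNx against sham in PT-S1, nor did any other gene: limma called 0% of 11874 genes at 24 h and 0% of 11886 at 72 h. At an unadjusted limma p under 0.05 there were 2109 and 2432 genes. Neither of the 2 members tested at 24 h was among them. At 72 h 2 of the 3 tested members were, Atp6v1g3 (unadjusted limma p = 0.00528) and Atp6v0a4 (0.0435). Atp6v1g3 passed the filter on low values only through its sham animals (mean 2.645 TPM, against 0.261 TPM in UNx). Its p is therefore no support for a difference. Animals did not overlap for 14.9% of genes at 24 h and 5.56% at 72 h, and for none of the tested members. The median change over all genes was itself below 0, -0.19 at 24 h and -0.29 at 72 h, and it was 0.01 and 0.02 under median-ratio scaling.

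At 24 h the sham PT-S1 animals held 89.9, 58.1 and 61.9 TPM of Atp6v0a4 and the UNx animals 65.3, 48.2, 77.9 and 52.4 TPM. The groups overlapped, and the change of -0.16 (SE 0.21, limma adjusted p = 0.672) turned to 0.07 under median-ratio scaling and to 0.02 without the libraries of low correlation. At 72 h it was at 65.8, 48.9, 42.5, 71.2 and 67.6 TPM in sham and at 25.05, 39.8, 61.8, 41.0 and 41.6 TPM in UNx. These groups overlapped too, with a change of -0.54 (SE 0.24, limma adjusted p = 0.241), of -0.16 under median-ratio scaling and of -0.38 without the libraries of low correlation. Slc26a4 was at 3.49, 2.06 and 2.12 TPM in sham at 24 h and at 2.09, 1.41, 0.78 and 1.40 TPM in UNx, a change of -0.45 (SE 0.24, adjusted p = 0.329). It ran from -0.58 to -0.18 over the 15 alternatives, and was -0.48 without the libraries of low correlation. At 72 h its change was -0.39 (SE 0.19, adjusted p = 0.251), and -0.10 once the low-correlation libraries of UNx animals 1 and 2 were left out, which held 0.60 and 0.40 TPM beside 3.52 and 2.81 TPM in the other libraries of the same animals. The difference of the effects between both times was -0.38 (SE 0.35) for Atp6v0a4 and 0.06 (SE 0.29) for Slc26a4, and the test called 0% of 11455 genes, with 381 at an unadjusted limma p under 0.05 and neither of these among them.

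At 72 h single sham PT-S1 libraries carried intercalated cell transcripts. The first library of sham animal 3 held 3.83 TPM of Slc4a1, 12.4 of Slc26a4, 9.57 of Slc4a9, 7.21 of Foxi1, 4.36 of Atp6v1b1, 9.41 of Atp6v1g3, 3.99 of Atp6v0d2, 10.5 of Rhcg and 4.39 of Rhbg, with Aqp2 at 2.01. These were the highest PT-S1 values at 72 h of all these genes. In the same library the 3 thick ascending limb markers summed to 23.95 TPM, the highest of the sham libraries (median 0.905). Its 7 principal cell markers summed to 99.57 TPM, also the highest of the sham libraries (median 72.575). UNx libraries at 72 h reached 57.49 TPM for the thick ascending limb sum and 151.95 TPM for the principal cell sum. In PT-S1 the latter is mostly Aqp3 and Fxyd4, with medians of 33.5 and 41.8 TPM over the sham libraries, where that of Aqp2 was 0.02. In UNx libraries Fxyd4 reached 143.9 TPM and Aqp2 at most 0.15 TPM. The first library of sham animal 3 also had the highest mitochondrial share of TPM at 72 h, 19.6% in a range of 3.97% to 19.6%. The part of this in its values was not tested. The first libraries of sham animals 1 and 5 held Foxi1 (1.69 and 1.80 TPM), Atp6v1b1 (2.68 and 3.01) and Atp6v1g3 (7.71 and 4.29) with Slc4a1 listed at 0. Atp6v1g3 was at 3.90, 0.29, 5.83, 1.32 and 1.87 TPM in the sham animals and at 0.43, 0.61, 0.13, 0.07 and 0.06 TPM in UNx. Sham animal 2 was low and the other 4 were above every UNx animal. The gene passed the filter on low values only through its sham animals, and its change was -1.09 (SE 0.32, limma adjusted p = 0.237), or -1.19 without the libraries of low correlation. Without the first library of sham animal 3 the changes were -0.92 for Atp6v1g3 (adjusted p = 0.223), -0.13 for Slc26a4 (0.638) and -0.50 for Atp6v0a4 (0.236).

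**Figure D5:**
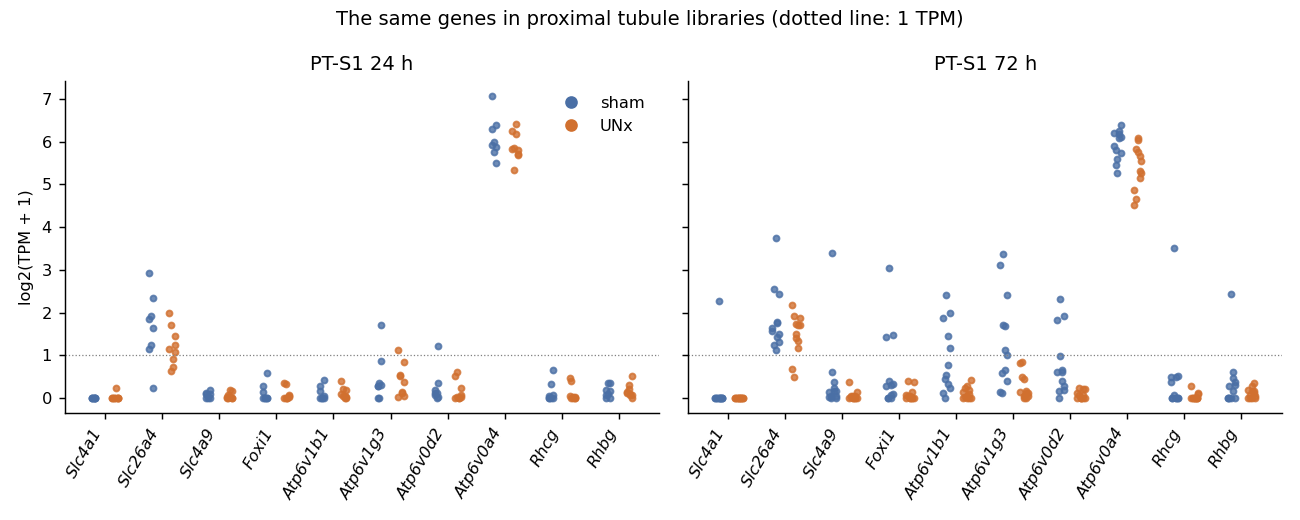
Level of the 10 genes in each PT-S1 library (points, log2(TPM + 1)), at 24 h (left) and 72 h (right), blue for sham and orange for UNx. Atp6v0a4 lies far above the others in both groups, and at 72 h 1 sham library is the highest for 9 of the 10 genes.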

How the data were processed

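The authors deposited 1 table of TPM values per segment and time, made with STAR and RSEM 1.3.3 on build GRCm39, per the submitters' processing notes. The annotation release is not given in the sources used here. Per the labels' protocols, cDNA was made from polyA RNA with a SMART-Seq low-input kit. TPM carries no depth, so the depth per library is unknown and no counting error was computed. All 69 columns were used. For 47 the name matched 1 sample, and for 22 only the group and the animal.

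Titles number the samples within Sham and UNx, and that number was taken to identify the animal. No label states that the numbers are separate mice, so p-values measure only the spread between these samples. Libraries of an animal were averaged as log2(TPM + 1), with a pseudocount of 1, so that the animal is the replicate. UNx was compared with sham within each table by limma 3.58.1 in R 4.3.3 (moderated, with a mean-variance trend, two-sided), over genes with a mean of at least 1 TPM over the animals, with Benjamini-Hochberg adjustment over all of them. Changes on this scale understate those of low genes. The fit was checked on simulated data. Ratios and correlations over animals used exact permutation tests (scipy 1.17.1). The tables were treated as normalized separately.

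The 10 genes and the lists were chosen with earlier results of these data known, as were the tests. All 10 are named, list genes only where they passed the test unless said otherwise, and for 3 genes the 5 most alike, with predicted genes passed over and 2 genes not reported here. The lists of proximal tubule, distal convoluted and connecting tubule, podocyte, endothelial, leukocyte and fibroblast markers had none that passed in either CCD table. Alternatives were a pseudocount of 0.1, no filter, median-ratio scaling, quantile normalization, libraries as replicates, a random effect of the animal, leaving out each animal or libraries of low correlation, and a replicate block. Leaving out the library highest in thick ascending limb markers, or that highest in intercalated cell genes, was added after seeing the data, as were the spread, the outlying animal and the most alike genes without the library of low correlation.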

Additional observations from a re-analysis of the deposited data

Results flagged for a closer look

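Of 44 groups of 4 or 5 animals examined (the tested genes and the ratios), 1 held an animal far from the others. Foxi1 in sham CCD at 72 h was at 653 TPM in animal 4, and at 468 to 500 TPM in the 3 other sham animals. The gap took up 0.96 of the range of the group on the log2 scale. It rested on the library of low correlation, which held 321 TPM: without it sham animal 1 was at 679 TPM, above animal 4, and no animal stood apart, the outermost gaps being 0.033 and 0.11 of the range. About 1 in 20 such groups is expected to hold such an animal by chance.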

How the results depend on the processing

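No member passed in any CCD or PT-S1 table under any alternative, except Atp6v0a4 in CCD at 24 h, which made the count of members 1 with libraries as replicates, in the model with a random animal effect and without sham animal 4 (0 to 1 when animals were left out). The counts over all genes moved more. With 136 genes in CCD at 24 h, they were 1 without a filter, 1027 with libraries as replicates, 485 with the random effect and 7 to 78 with an animal left out. With 82 in CCD at 72 h, they were 7, 150, 122 and 8 to 73, and 129 without the library of low correlation. With 0 in PT-S1 at 24 h, they were 2, 85, 100 and 0 to 8, and 1 each under median-ratio scaling, quantile normalization and without libraries of low correlation. With 0 in PT-S1 at 72 h, they were 18 with libraries, 10 with the random effect and 1 without libraries of low correlation. For the difference between times they were 1 in CCD with libraries as replicates, and in PT-S1 1 without a filter and 187 without libraries of low correlation.

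Sham and UNx animals share numbers in the titles but not a stated litter or day. The deviations of same-numbered animals from their group means correlated between -0.37 and 0.33. With the number as a replicate block the counts were 0 and 3 in CCD at 24 h and 72 h and 81 and 0 in PT-S1, no member passed, and Foxi1 in CCD at 24 h turned to -0.0069.

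Changes near 0 turned sign. In CCD at 24 h, with an animal left out, they ran from -0.090 to 0.17 for Slc4a9, -0.065 to 0.12 for Atp6v1g3, -0.034 to 0.16 for Atp6v0d2 and -0.010 to 0.11 for Foxi1. In CCD at 72 h they ran from -0.057 to 0.29 for Slc4a9, -0.084 to 0.12 for Rhcg, -0.33 to 0.093 for Atp6v0a4, -0.059 to 0.17 for Foxi1 and -0.044 to 0.23 for Rhbg. In PT-S1 at 24 h Atp6v0a4 ran from -0.29 to 0.012. Without the library of low correlation Slc4a9, Rhcg and Foxi1 in CCD at 72 h were at -0.075, -0.081 and -0.081, with libraries as replicates Slc4a9 and Foxi1 were at -0.0069 and -0.0030, and with quantile normalization Rhcg was at -0.067. Atp6v0a4 in PT-S1 at 24 h was at 0.072 under median-ratio scaling and 0.023 without libraries of low correlation.

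The difference between times in CCD turned for Slc4a9 and Foxi1 under median-ratio scaling (-0.034 and -0.068), for Foxi1 under quantile normalization (-0.057) and the random effect (-0.022), for Atp6v1b1, Slc4a9 and Foxi1 with libraries as replicates (-0.027, -0.015 and -0.042), and for Slc4a1, Slc4a9 and Foxi1 without the library of low correlation (-0.18, -0.14 and -0.13). In PT-S1 it turned for Slc26a4 under quantile normalization (-0.058). The Slc26a4 over Slc4a1 difference at 24 h was 0.019 from mean TPM per animal and ran from -0.19 to 0.14 with an animal left out. At 72 h it ran from -0.77 to 0.069, and that of Slc4a9 over Slc4a1 from -0.81 to -0.23. Without the library of low correlation the correlations at 72 h were -0.76 for Atp6v1b1 with Slc4a1, -0.21 for Slc4a1 with Slc26a4 and -0.65 for Atp6v1b1 with Aqp2 (exact permutation p = 0.0747). The causes were not tested.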
